A study of Mus musculus with 12 samples.

Results

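The immediate early activity genes described here are 10 genes, Fos, Fosb, Fosl2, Junb, Egr1, Egr3, Arc, Npas4, Nr4a1 and Ier2, which were taken as the rows of the gene count table that carry these names, with no threshold on their values. They are 10 of the 44345 genes in the table, and 9 of them were among the 16238 genes that passed the filter on low counts and could be tested. Immediate early genes are transcribed within minutes of membrane depolarisation, calcium entry or growth factor signalling, from factors already present in the cell such as CREB and SRF, and their transcripts are short lived. Most of them encode transcription factors of the AP-1, EGR and NR4A families, which bind the control regions of slower genes, whereas Arc acts directly at synapses. They are used as markers of recent activity in neurons, and are described here in the dorsal root ganglion (DRG), which holds sensory neurons.

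RNA sequencing was performed on sciatic L4-L6 DRG of C57BL/6 mice aged 5-8 weeks, in 4 groups of 3 samples, each sample being a pool of the ganglia of both sides of 2 mice. Mice lived for 10 days in standard housing (SH) or in environmental enrichment (EE), a cage with a running wheel, tunnel, igloo, nesting material and a changing object. They then underwent sciatic nerve axotomy (SNA), a complete cut of the nerve, or a sham operation that exposed the nerve, and the DRG were taken 24 h later. The groups are named SH Sham and SH SNA in standard housing, EE Sham and EE + SNA in enrichment. Every mouse, controls included, had surgery 24 h before the tissue was collected and no group was left unoperated. The study describes EE Sham as an earlier dataset, and the labels give no dates, so in any comparison with EE Sham the group and the time at which its libraries were made cannot be told apart. Whole ganglia were sequenced, so the values sum neurons, glia and other cells, and a smaller share of a cell type cannot be told apart from less RNA per cell.

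The samples held 11343579 to 22871460 reads on genes, the highest being EE + SNA replicate 2, and 1 CPM (the unit of level used here, reads of a gene relative to the reads on all genes of its sample, after TMM scaling) stood for 11.1 to 23.0 reads. Sensory neuron markers were abundant in every group, with a summed level of 4790 to 6270 CPM over 8 genes and none at 0. Among 6 genes of the axotomy response, which was used as a check of the surgery labels, 6 rose at adjusted P-value in SH SNA and 6 in EE + SNA, each against SH Sham.

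To show the letters around the RefSeq start sites, the promoter windows of 4 members are printed here, those of Fos and Nr4a1, Npas4, which was close to absent, and Fosl2, which rose after axotomy. The RefSeq table held a window of 250 bases before to 50 bases after the start site (GRCm38.p6) for 6 of the 10 members. In Fos this start is the start of the gene span in GENCODE M21, while in Nr4a1, Npas4 and Fosl2 it lies inside the span, so that annotation also has starts further upstream, which these windows do not show. The windows are chr12:85473640-85473939 (plus strand) for Fos, chr15:101266596-101266895 (plus strand) for Nr4a1, chr19:4989922-4990221 (minus strand) for Npas4 and chr5:32136222-32136521 (plus strand) for Fosl2. Capitals mark TGACG, the core of the cAMP response element (CRE) to which CREB binds, on either strand (read as CGTCA on the other), and the TATA box TATAAA.
Fos: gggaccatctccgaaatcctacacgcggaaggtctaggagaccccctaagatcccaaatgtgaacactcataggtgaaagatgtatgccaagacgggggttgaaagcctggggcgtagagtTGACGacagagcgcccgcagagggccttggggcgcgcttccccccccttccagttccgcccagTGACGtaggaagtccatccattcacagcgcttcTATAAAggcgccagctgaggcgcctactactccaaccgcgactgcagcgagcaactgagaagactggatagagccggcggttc
Nr4a1: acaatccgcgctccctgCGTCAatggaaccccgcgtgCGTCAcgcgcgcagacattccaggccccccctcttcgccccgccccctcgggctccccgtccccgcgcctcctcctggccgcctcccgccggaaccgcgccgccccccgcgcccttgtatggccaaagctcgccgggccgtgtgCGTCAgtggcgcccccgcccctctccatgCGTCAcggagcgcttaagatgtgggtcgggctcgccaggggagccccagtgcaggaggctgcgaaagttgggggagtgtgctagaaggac
Npas4: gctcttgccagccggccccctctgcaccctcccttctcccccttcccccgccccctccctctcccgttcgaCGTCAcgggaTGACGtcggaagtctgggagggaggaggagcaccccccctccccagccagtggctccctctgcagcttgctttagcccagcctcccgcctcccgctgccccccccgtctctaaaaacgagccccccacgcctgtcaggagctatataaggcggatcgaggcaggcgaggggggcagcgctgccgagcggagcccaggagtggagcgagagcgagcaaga
Fosl2: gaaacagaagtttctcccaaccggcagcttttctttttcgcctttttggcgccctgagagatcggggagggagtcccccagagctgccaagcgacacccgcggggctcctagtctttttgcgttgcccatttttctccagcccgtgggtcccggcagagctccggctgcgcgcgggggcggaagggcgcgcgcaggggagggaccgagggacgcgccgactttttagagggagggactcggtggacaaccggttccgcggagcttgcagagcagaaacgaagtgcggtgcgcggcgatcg

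The core TGACG was found on either strand in 20.8% of 32851 promoter windows of the same length. Nr4a1 held 4 copies, beginning at bases -233, -213, -69 and -40 from the start, a number reached by 0.2% of all windows. Fos held 2 copies (at -129 and -66) and Npas4 held 2 (at -179 and -169), a number reached by 5.0% of windows, while Fosb and Junb held 1 each and Fosl2 none. The full palindrome TGACGTCA, which contains the core on both strands, was in 1.79% of all windows and in 0 of the 6, and the CArG box bound by SRF was in 1.63% of all windows and in 0 of the 6. TATAAA, present in 13.6% of windows, began at -33 in Fos and at base 1 in Junb. The RefSeq start of Junb lies upstream of the gene span in GENCODE M21, so in that annotation this TATAAA lies before the start. These matches describe letters in a short window, and their absence says nothing about binding elsewhere. They also say nothing about the members that were not searched, Egr1 among them.

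The levels of the members were compared with each other per length, as FPKM (reads per kilobase of gene and per sequencing depth), in the authors' deposited table. Junb, an AP-1 subunit of the JUN family, and Nr4a1, an orphan nuclear receptor, were the most abundant, with means over the 12 samples of 13.4 and 13.1 FPKM, at percentiles 73.1 and 72.4 of the genes tested. These 2 did not separate, since Junb was above Nr4a1 in 7 of 12 samples. Fosl2, a FOS-family AP-1 subunit, followed at 6.95 FPKM and was above Ier2 in 12 of 12 samples. Ier2, a small nuclear protein, and Fos, the founding FOS subunit, had means of 3.69 and 3.50 FPKM and could not be ordered, with Ier2 above Fos in 6 of 12 samples. Egr1, a zinc finger factor, had a mean of 2.51 FPKM and lay below Fos in 11 of 12 samples. Arc, a postsynaptic protein that takes part in the removal of AMPA receptors, had a mean of 1.88 FPKM and lay below Egr1 in 10 of 12 samples. Egr3, a relative of Egr1, had 0.728 FPKM, Fosb, another FOS subunit, 0.172 FPKM, and Npas4, a neuronal bHLH-PAS factor induced by calcium, 0.0247 FPKM. The order of the last 3 was the same in 12 of 12 samples. The gene length behind the authors' FPKM is not stated, and for Egr3 their values imply 1422 bases where GENCODE M21 has 4406 exon bases. With CPM divided by these exon lengths, an alternative chosen after seeing the data, the order of the means was the same, but Egr3 was at 0.236 in place of 0.728, Fosl2 was above Ier2 in 10 of 12 samples, and Egr3 was above Fosb in 10 of 12.

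In GENCODE M21 (GRCm38, the build named mm10 by the study), the members lie on 8 chromosomes and none shares exon bases with another member. Junb (ENSMUSG00000052837, chr8:84974484-84978718, minus strand) shares 173 exon bases with Prdx2 on the other strand, and the strand setting of the counting was not given in the sources used here, so its level may hold some reads of Prdx2. The other 9 members share no exon bases with any gene.

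**Figure D1:**
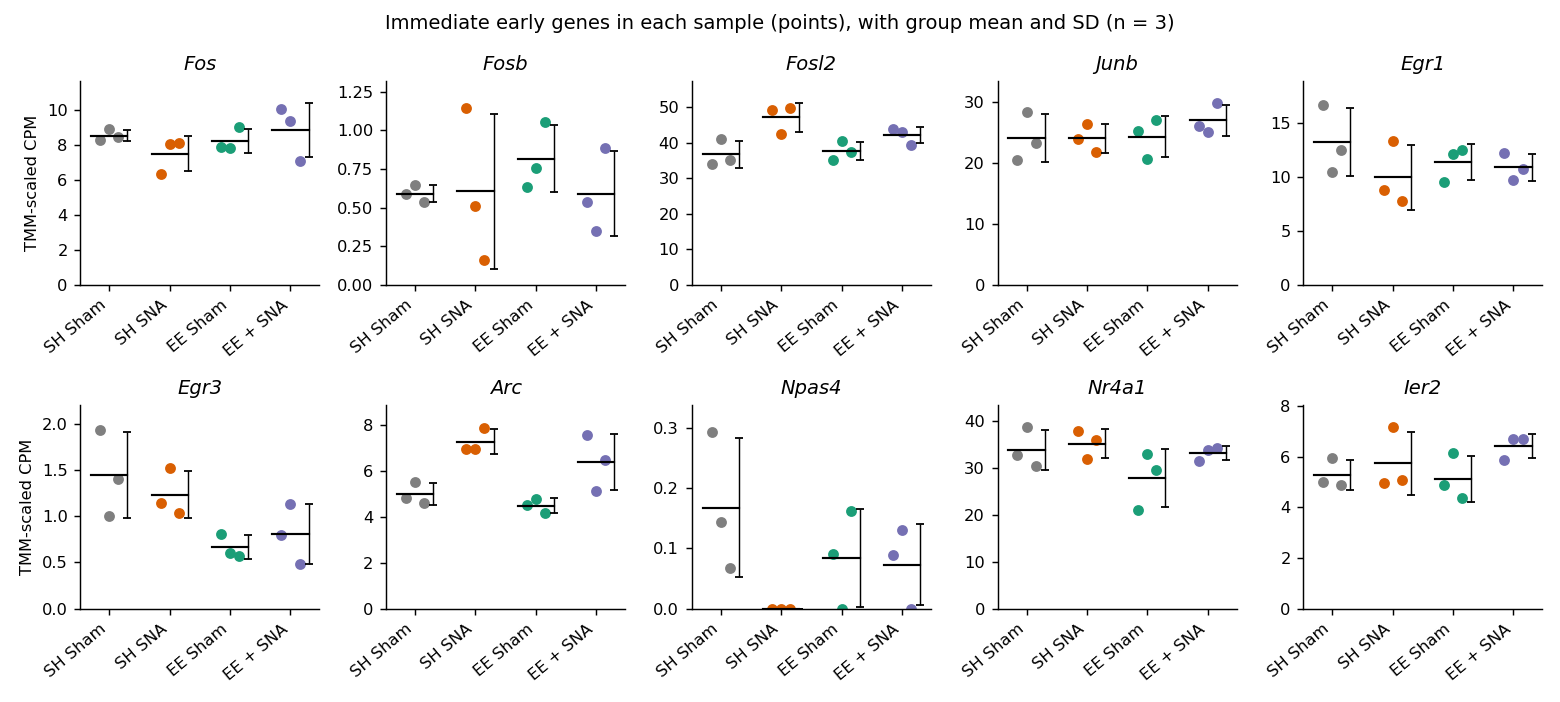
Level of each of the 10 immediate early genes in each sample, in TMM-scaled CPM on linear axes that start at 0, with 1 point for each of the 3 samples of a group, a horizontal line for the group mean and a bar for ± 1 SD. Arc sits at 6.93 to 7.88 CPM in SH SNA, above the 4.61 to 5.52 CPM of SH Sham, and Egr3 sits at 0.569 to 0.812 CPM in EE Sham, below the 1.0 to 1.94 CPM of SH Sham.

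Axotomy in standard housing was examined first, by comparing SH SNA with SH Sham. Arc and Fosl2 rose, by 1.46-fold and 1.29-fold, and the other 7 members tested did not pass the threshold in either direction. Fos and Egr1 lay lower after axotomy in their means, and the 95% intervals of both differences included 0.

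Arc (ENSMUSG00000022602, chr15:74669083-74672570, minus strand) was measured at 4.81, 5.52 and 4.61 CPM in SH Sham replicates 1 to 3 and at 6.96, 6.93 and 7.88 CPM in SH SNA. The lowest SH SNA sample was above the highest SH Sham sample. The log2 fold change was 0.55 ± 0.14 (SE, n = 3 per group, 95% interval 0.25 to 0.84), with adjusted P-value = 0.0219 by edgeR's quasi-likelihood test.

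Fosl2 (ENSMUSG00000029135, chr5:32135801-32157842, plus strand), whose printed promoter holds none of the motifs searched, was measured at 34.0, 41.1 and 35.2 CPM in SH Sham and at 49.1, 42.4 and 49.9 CPM in SH SNA. Again the groups did not overlap, although SH Sham replicate 2 and SH SNA replicate 2 lay close together. The log2 fold change was 0.36 ± 0.09 (SE, n = 3 per group, 95% interval 0.17 to 0.56), with adjusted P-value = 0.0222 in the same edgeR fit. For both Arc and Fosl2, leaving out SH Sham replicate 1, SH Sham replicate 3, SH SNA replicate 1 or SH SNA replicate 3 raised the adjusted P-value over 0.05, to between 0.0534 and 0.0835 for Arc and between 0.0797 and 0.0976 for Fosl2, while the unadjusted P-value stayed under 0.05 in all 14 alternatives. The adjusted P-value of Arc was 0.0658 with DESeq2, and that of Fosl2 was 0.0787 and 0.0741 on the FPKM scales and 0.0532 with the replicate number as a block.

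Fos (ENSMUSG00000021250, chr12:85473890-85477273, plus strand) was measured at 8.27, 8.89 and 8.42 CPM in SH Sham and at 6.35, 8.03 and 8.12 CPM in SH SNA. The groups did not overlap, with SH SNA lower, but the log2 fold change of -0.18 ± 0.13 (SE, 95% interval -0.46 to 0.09) did not pass the unadjusted threshold (adjusted P-value = 0.41, edgeR). Egr1 (ENSMUSG00000038418, chr18:34859823-34864984) was measured at 16.7, 10.5 and 12.4 CPM in SH Sham and at 8.79, 13.4 and 7.72 CPM in SH SNA, so that SH SNA replicate 2 lay among the sham samples. Its log2 fold change was -0.41 ± 0.20 (SE, 95% interval -0.85 to 0.03), with adjusted P-value = 0.228 by edgeR. At an unadjusted P-value Egr1 was called in 5 of 14 alternatives, with DESeq2 (-0.41), with all 12 samples in one fit (-0.42), with no filter on low counts (-0.43), without SH Sham replicate 2 (-0.55) and without SH SNA replicate 2 (-0.68). It passed adjustment in 2 of these, with no filter (adjusted P-value = 0.0212) and without SH SNA replicate 2 (adjusted P-value = 0.0301), both by edgeR.

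The remaining 5 members tested gave log2 fold changes in SH SNA between -0.25 for Egr3 and 0.12 for Ier2. Junb, at 0.00 ± 0.12 (SE), had a 95% interval from -0.26 to 0.27, and Nr4a1, at 0.06 ± 0.10, had one from -0.16 to 0.28, so a change of the size seen for Arc lay outside both intervals. Fosb (ENSMUSG00000003545, chr7:19302696-19310051) rested on few reads, at 0.587, 0.646 and 0.535 CPM in SH Sham and 1.15, 0.507 and 0.159 CPM in SH SNA, and its interval ran from -1.11 to 1.23.

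In all, 2 of the 9 members tested were called at an unadjusted P-value of 0.05, the rule used by the study, against 25.2% of all genes tested. The same 2 of 9 were called at adjusted P-value, against 11.2% of all genes, and 3 of 9 had groups that did not overlap, against 29.4% of all genes. The shares at an unadjusted P-value and by overlap were near the background, and at adjusted P-value the background share of 9 genes is 1 gene. Their median log2 fold change was 0.06, beside 0.00465 for all genes tested.

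Cell type markers moved with axotomy as well. The summed level of 8 sensory neuron markers was 5690 to 6270 CPM in SH Sham and 4790 to 5320 CPM in SH SNA, with 3 of 8 lower at adjusted P-value. The summed level of 4 satellite glia markers was 723 to 787 CPM in SH Sham and 888 to 915 CPM in SH SNA. That of 6 macrophage markers was 49.6 to 52.0 CPM and 56.9 to 77.1 CPM. In each of these lists 1 marker was higher at adjusted P-value, where 11.2% of all genes were called. For satellite glia this was Glul, with a log2 fold change of 0.47. Kcnj10 had 0.08, Fabp7 -0.21 and Cadm2 -0.21, and these were not called, so the satellite glia markers did not rise together. Of 3 red blood cell markers 2 were higher at adjusted P-value, and no marker of Schwann cells, neutrophils, lymphocytes, endothelium, mural cells, fibroblasts or skeletal muscle was, although the summed level of 5 muscle markers reached 750 CPM in an SH SNA sample, against 2.46 to 111 CPM in SH Sham. No marker of these lists was at 0 in any group, and their part in the rise of Arc and Fosl2 was not tested.

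Enrichment without nerve injury was examined by comparing EE Sham with SH Sham. Egr3 was lower in EE Sham at an unadjusted P-value and did not pass adjustment, and no other member passed either threshold. Egr3 (ENSMUSG00000033730, chr14:70077203-70082614) encodes a zinc finger factor of the EGR family, which is also known to be required for muscle spindles to form.

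Egr3 was counted with 33, 14 and 21 reads in SH Sham and with 9, 8 and 7 reads in EE Sham, which is 1.94, 1.0 and 1.40 CPM against 0.812, 0.607 and 0.569 CPM. All 3 EE Sham samples lay below all 3 SH Sham samples, with SH Sham replicate 1 the highest of the 12 samples. The log2 fold change was -1.15 ± 0.36 (SE, n = 3 per group, 95% interval -1.91 to -0.39), with adjusted P-value = 1 by edgeR, and Egr3 ranked at 40 of the 16238 genes by its unadjusted P-value. Egr3 reached the filter's level of 0.783 CPM in 3 of 3 SH Sham samples, 3 of 3 SH SNA samples, 1 of 3 EE Sham samples and 2 of 3 EE + SNA samples. The samples by which it passed the filter were thus mostly from the groups in which it was high. Over 14 alternatives the unadjusted P-value stayed under 0.05 and the adjusted P-value was 0.34 or more. The log2 fold change was -0.87 without SH Sham replicate 1. Sensory neuron markers summed to 5580 to 5880 CPM in EE Sham, with 0 of 8 called at adjusted P-value and 1 lower at an unadjusted P-value, and their part in the value of Egr3 was not tested.

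Nr4a1 (ENSMUSG00000023034, chr15:101254269-101274795), whose promoter holds the 4 CRE cores shown above, was measured at 32.6, 38.6 and 30.4 CPM in SH Sham and at 21.0, 32.9 and 29.6 CPM in EE Sham. The groups overlapped, and EE Sham replicate 1 was the lowest of the 12 samples. The log2 fold change was -0.27 ± 0.13 (SE, 95% interval -0.56 to 0.01) and was not called. In this comparison the deviations of same-numbered samples had r of 0.331, 0.137 and 0.111 over all genes, where samples of different numbers reached 0.194. With the replicate number as a block the log2 fold change of Nr4a1 was -0.29, with adjusted P-value = 0.328 by edgeR. The block raised the members called at an unadjusted P-value from 1 to 2.

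For the other 7 members tested, log2 fold changes in EE Sham ran from -0.22 for Egr1 to 0.47 for Fosb, and those of Fos, Fosl2, Junb and Ier2 were within 0.051 of 0. The 95% interval of Fos ran from -0.33 to 0.22 and that of Fosl2 from -0.15 to 0.23. With 1 of 9 called at an unadjusted P-value, the background was 2.97% of all genes, and with 1 of 9 not overlapping it was 7.61%. At adjusted P-value edgeR called 0 of 9 members, where the background was 0.00616%. The members' median log2 fold change was -0.05, beside 0.00274 for all genes.

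Combined enrichment and axotomy was compared with SH Sham next. Fosl2 was higher and Egr3 lower in EE + SNA, both at an unadjusted P-value and neither after adjustment. Arc lay higher in its mean, at 7.56, 5.13 and 6.45 CPM, but EE + SNA replicate 2 fell within the range of SH Sham.

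Fosl2 was measured at 43.8, 43.1 and 39.5 CPM in EE + SNA, and the lowest of these was below the highest SH Sham sample. Its log2 fold change was 0.20 ± 0.08 (SE, 95% interval 0.02 to 0.38), with adjusted P-value = 0.138 by edgeR. The unadjusted call was lost with DESeq2 and with either FPKM scale, and without SH Sham replicate 1 or 3 or EE + SNA replicate 1 or 2, where the log2 fold change was 0.14 to 0.18. With DESeq2 and on the FPKM scales it was 0.16 to 0.19.

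Egr3 was measured at 0.801, 1.13 and 0.483 CPM in EE + SNA, and EE + SNA replicate 2 lay above the lowest SH Sham sample. Its log2 fold change was -0.78 ± 0.36 (SE, 95% interval -1.55 to -0.000291), with adjusted P-value = 0.183 by edgeR. The call at an unadjusted P-value ended with DESeq2 and with the replicate block, and without SH Sham replicate 1 or 3 or EE + SNA replicate 1 or 3, the log2 fold change being -0.51 without SH Sham replicate 1. Without EE + SNA replicate 2 it was -1.20.

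The log2 fold change of Arc was 0.33 ± 0.17 (SE, 95% interval -0.04 to 0.70), that of Ier2 was 0.29 ± 0.15 (-0.02 to 0.61) and that of Egr1 was -0.30 ± 0.16 (-0.65 to 0.04), and none of the 3 was called. Ier2 (ENSMUSG00000053560, chr8:84661331-84662852, minus strand) was measured at 5.87, 6.70 and 6.69 CPM in EE + SNA against 4.99, 5.95 and 4.88 CPM in SH Sham, where only SH Sham replicate 2 reached the EE + SNA range. Fos, Junb and Nr4a1 had log2 fold changes of 0.05, 0.17 and -0.03. Members called at an unadjusted P-value were 2 of 9, against 27.2% of all genes, and edgeR called 0 of 9 at adjusted P-value, against 12.5%. No member had groups that did not overlap, against 31.8% of all genes. The members' median log2 fold change was 0.05, beside 0.00466 for all genes. Without SH Sham replicate 2 there were 5 members called at an unadjusted P-value, there was 1 without EE + SNA replicate 3, and there were 0 without SH Sham replicate 1, SH Sham replicate 3 or EE + SNA replicate 1. Cell type markers moved in this comparison too, with 12.5% of all genes called at adjusted P-value. At that threshold 3 of 4 Schwann cell, 3 of 4 mural cell, 3 of 3 red blood cell and 2 of 4 fibroblast markers were higher in EE + SNA. So were 2 of 6 macrophage markers and 1 marker each of satellite glia, endothelium and neutrophils, while 3 of 8 sensory neuron markers were lower. The summed level of 7 neutrophil markers was 68.6 to 183 CPM in SH Sham and 149 to 718 CPM in EE + SNA. None of these markers was at 0 in either group, and their part in the values of Fosl2 and Egr3 was not tested. The 3 comparisons with SH Sham share its samples, so their values for a gene are not independent.

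**Figure D2:**
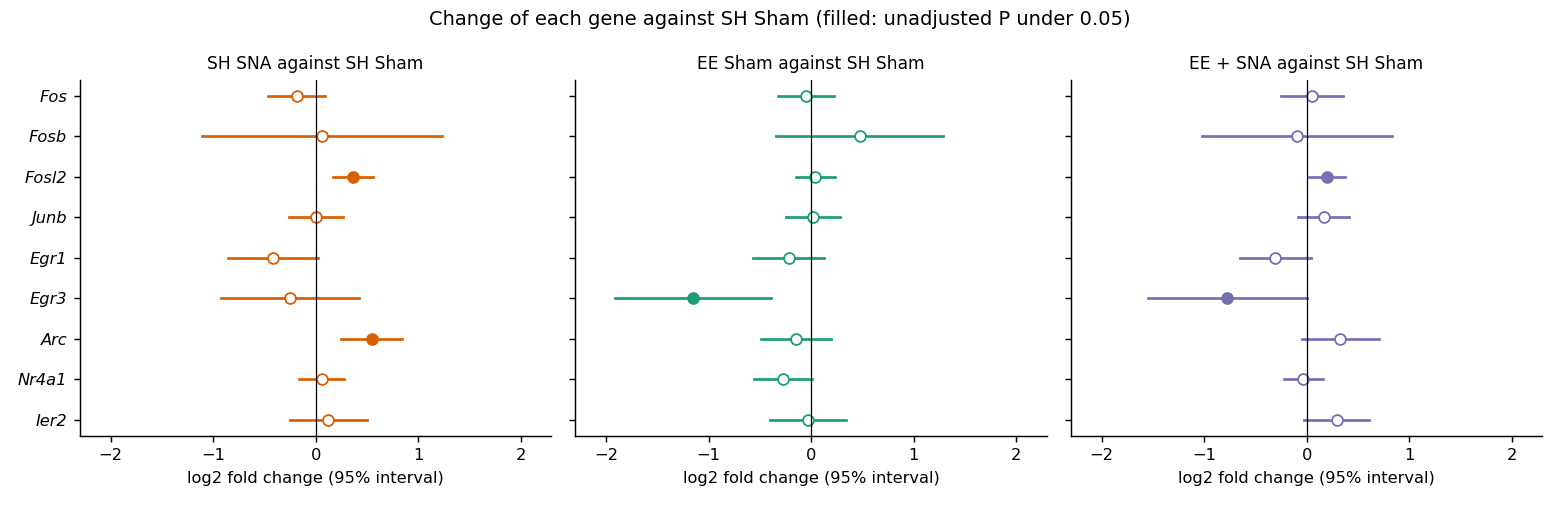
Log2 fold change of the 9 immediate early genes tested, in 3 panels that set SH SNA, then EE Sham, then EE + SNA against SH Sham, on linear axes, where lines are 95% intervals and filled points have an unadjusted P-value under 0.05. The filled points are Fosl2 and Arc in SH SNA, Egr3 in EE Sham, and Fosl2 and Egr3 in EE + SNA, and the widest intervals belong to Fosb and Egr3.

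EE + SNA was next compared with SH SNA and with EE Sham, and then the interaction of housing and surgery was fitted. Of these only the interaction tests whether enrichment changed the response to axotomy. Between EE + SNA and SH SNA, edgeR called 0 of 9 members at an unadjusted P-value, against 4.10% of all genes, and 0 of 9 at adjusted P-value, against 0% of all genes. No member had groups that did not overlap, against 10.4% of all genes, and the members' median log2 fold change was -0.09, beside 0.0024 for all genes.

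Fosl2 came nearest to the threshold, with a log2 fold change of -0.16 ± 0.08 (SE, 95% interval -0.34 to 0.01) and adjusted P-value = 0.989 by edgeR. Arc had a log2 fold change of -0.21 ± 0.16 (95% interval -0.56 to 0.15) and Egr3 one of -0.53 ± 0.35. The count of members called at an unadjusted P-value rose to 3 without SH SNA replicate 2, the sample in which Egr1 was highest and Fosl2 lowest of its group, and to 1 without EE + SNA replicate 2 or 3.

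Axotomy within enrichment was compared as EE + SNA against EE Sham. Arc was measured at 4.51, 4.78 and 4.14 CPM in EE Sham, and all 3 EE + SNA samples lay above these. Its log2 fold change was 0.48 ± 0.18 (SE, 95% interval 0.09 to 0.87), with adjusted P-value = 0.155 by edgeR. The call at an unadjusted P-value was lost without EE Sham replicate 3, where the log2 fold change was 0.42, and without EE + SNA replicate 1, where it was 0.34. It was the only member called, 1 of 9 against 20.6% of all genes, and the only one with groups that did not overlap, against 25.8%. At adjusted P-value edgeR called 0 of 9, against 4.83% of all genes. Log2 fold changes of the other 8 members tested ran from -0.57 for Fosb to 0.36 for Egr3, with Ier2 at 0.32 and Nr4a1 at 0.24. Nr4a1 was 31.3, 33.7 and 34.2 CPM in EE + SNA and, as given above, varied more in EE Sham. The members' median log2 fold change was 0.15, beside 0.00386 for all genes. Without EE Sham replicate 2 the count of members called at an unadjusted P-value was 4, and without EE + SNA replicate 3 it was 2.

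The interaction of housing and surgery, fitted on all 12 samples, tests whether the axotomy effect differed between housings. By edgeR 0 of 9 members were called, against 2.61% of all genes at an unadjusted P-value and 0% at adjusted P-value. For Arc the difference between the 2 axotomy effects was -0.06 ± 0.22 on the log2 scale (SE, 95% interval -0.52 to 0.40), and for Fosl2 it was -0.20 ± 0.12 (95% interval -0.46 to 0.06). Fos had 0.29 ± 0.20 and Egr3 had 0.62 ± 0.51, with intervals that included 0. The members' median was 0.19, beside 0.00141 for all genes. Fosl2 was called at an unadjusted P-value without SH Sham replicate 2 (-0.29) or SH SNA replicate 2 (-0.28), and Egr1, at 0.34 ± 0.27 with all samples, without SH SNA replicate 2 (0.60), each with adjusted P-value = 1 by edgeR. Fos was called at an unadjusted P-value without EE + SNA replicate 3 (0.415) and did not pass adjustment.

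When the axotomy effect was estimated over both housings in a fit without interaction, Arc and Fosl2 were again the members that rose. Arc had a log2 fold change of 0.52 ± 0.11 (SE, n = 6 against 6, 95% interval 0.29 to 0.74), with adjusted P-value = 0.00183 by edgeR. Fosl2 had 0.26 ± 0.06 (95% interval 0.13 to 0.40), with adjusted P-value = 0.00667. Both remained called at adjusted P-value whichever sample was left out. These were 2 of 9 members at an unadjusted P-value, against 34.7% of all genes, and 2 of 9 at adjusted P-value, against 22.4%. Fos, at -0.04 ± 0.10, had a 95% interval from -0.25 to 0.17, and Junb, at 0.08 ± 0.09, had one from -0.11 to 0.26. Nr4a1, Ier2 and Egr1 had log2 fold changes of 0.15, 0.22 and -0.25, with adjusted P-values of 0.256, 0.191 and 0.214 in the edgeR fit. The members' median was 0.08, beside 0.00708 for all genes. In the same fit 4 of 4 Schwann cell, 3 of 6 macrophage and 2 of 4 fibroblast markers were higher and 5 of 8 sensory neuron markers lower at adjusted P-value. Of satellite glia, neutrophils, lymphocytes, red blood cells, endothelium and mural cells 1 marker each was higher, and 1 satellite glia marker was lower. The part of these markers in the rise of Arc and Fosl2 was not tested.

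For enrichment over both surgeries Egr3 was again the member called. The limit given above holds here too, since Egr3 rested on few reads and reached the filter's level more often in SH than in EE samples. Its log2 fold change was -0.82 ± 0.25 (SE, n = 6 against 6, 95% interval -1.35 to -0.29), with adjusted P-value = 0.898 by edgeR. The 6 EE samples ranged from 0.483 to 1.13 CPM and the 6 SH samples from 1.0 to 1.94 CPM, and only EE + SNA replicate 2 reached the SH range. Of 9 members 1 was called at an unadjusted P-value, against 4.69% of all genes, and edgeR called 0 of 9 at adjusted P-value, against 0% of all genes. Nr4a1 and Arc lay at -0.18 ± 0.09 and -0.18 ± 0.11, and their 95% intervals included 0. The members' median was -0.06, beside 0.00163 for all genes.

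**Figure D3:**
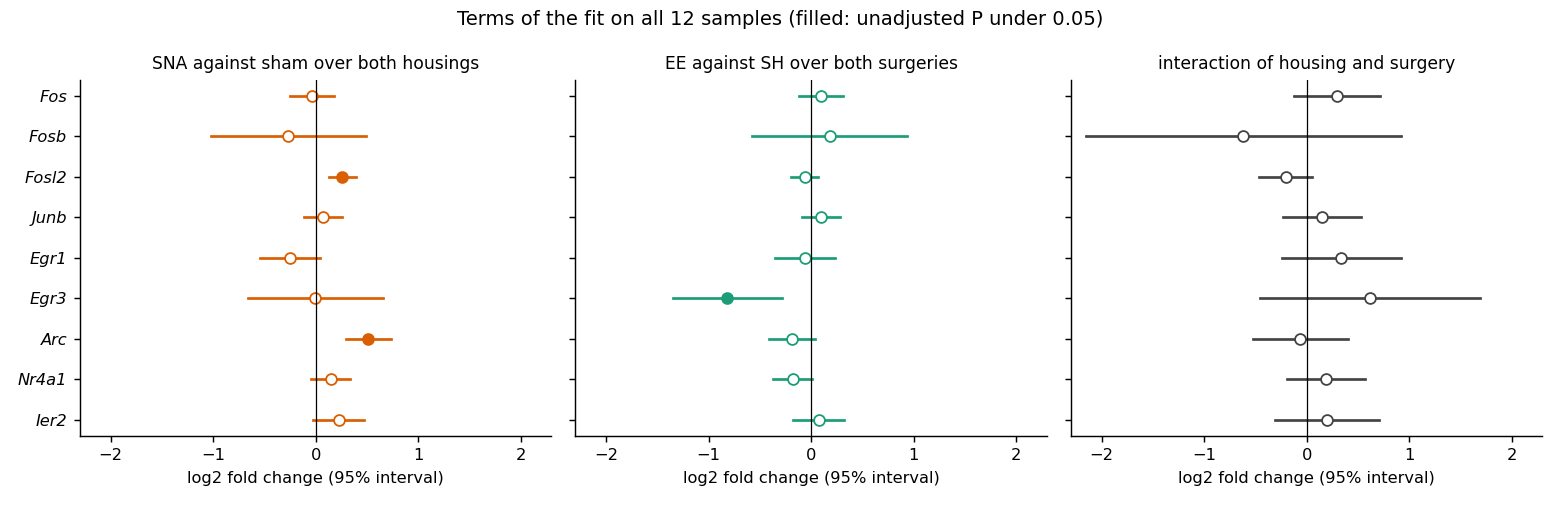
Log2 fold change of the 9 immediate early genes tested for axotomy over both housings, enrichment over both surgeries, and their interaction, from fits on all 12 samples, where lines are 95% intervals and filled points have an unadjusted P-value under 0.05. Arc and Fosl2 are filled above 0 for axotomy, Egr3 is filled below 0 for enrichment, and every interaction interval includes 0.

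Npas4 (ENSMUSG00000045903, chr19:4984355-4990316, minus strand), whose promoter is printed above with its 2 CRE cores, was almost absent from these ganglia. It was counted with 5, 2 and 1 reads in SH Sham, with 0 reads in each SH SNA sample, with 1, 0 and 2 reads in EE Sham and with 1, 3 and 0 reads in EE + SNA. Over the summed samples of a group this was 0.175, 0, 0.082 and 0.0854 CPM, where the 0 reads of SH SNA allow up to 0.0799 CPM (3 reads over the group, counting error only). It reached the filter's level in 0 of 12 samples and was not tested.

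How far the members varied within a group was read from the fit on all 12 samples, as the biological coefficient of variation. It was lowest for Fosl2, at 6.99%, and lay between 9.77% and 11.4% for Fos, Junb, Arc, Nr4a1 and Ier2, beside a median of 8.14% over all genes tested. Egr1 was more variable, at 15.5%, and Egr3 and Fosb were at 18.6% and 24.7%. For Egr3 and Fosb the error of counting reads alone came to 27.2% and 34.3%, larger than their biological spread, whereas for Egr1 it was 8.16%. In Arc, Ier2 and Fos it was about as large as the biological spread, at 11.1% beside 10.5%, 11.4% beside 11.4% and 9.67% beside 9.77%. Depth therefore limits what can be said of Egr3 and Fosb more than of the other members.

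Whether the members varied together within groups was described next. Pearson correlations of their deviations from the group means were computed for the 36 pairs of the 9 members tested over 12 samples, with exact permutation tests of the orders within groups. Of the 36 pairs 17 were positive, and the median r was -0.02. Fosl2 and Nr4a1 had r = 0.69 (exact permutation P-value = 0.0309, Spearman rho = 0.70, exact P-value = 0.0525), and r was 0.62 without the 2 samples farthest from the median of Fosl2. Egr3 and Nr4a1 had r = -0.52 (exact permutation P-value = 0.0494, Spearman rho = -0.63, exact P-value = 0.0262), and r was -0.68 without the 2 farthest samples. Both had an adjusted P-value of 0.889 over the 36 pairs, 0 pairs passed adjustment, and 0 to 2 passed unadjusted over the alternatives tried.

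**Figure D4:**
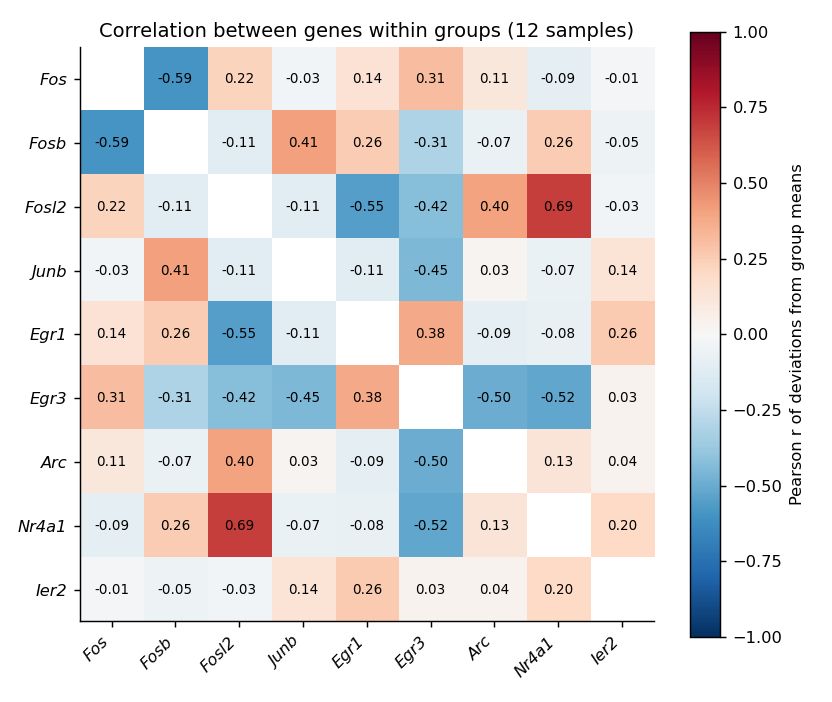
Pearson r between each pair of the 9 immediate early genes tested, computed over 12 samples on deviations of log2 CPM from the group means, with red for positive and blue for negative r on a linear colour scale from -1 to 1. Positive and negative pairs are mixed, 17 of 36 being positive, and the strongest is Fosl2 with Nr4a1 at 0.69.

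The members and all genes of the lists and cell type markers used here were left out of the ranking that follows, so none could appear in it. Genes whose pattern was most like the mean of the 9 members were ranked among the other 15361 genes with a mean over 1 CPM. For levels over the 12 samples these were Gm11175 (r = 0.95), Dmpk (0.92), Usf2 (0.88), Sox9 (0.87) and Gbp4 (0.87). For deviations from the group means they were Gm16266 (0.95), Lmo1 (0.93), Creld2 (0.92), Snrpa1 (0.91) and Dmpk (0.91). They are the top of a ranking over all these genes and share libraries and scaling with the members, so the values are a description with no test.

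Other rapid response genes, a list of 40 of which 38 could be tested, were set beside the members. At adjusted P-value 12 of 38 were higher and 1 lower in SH SNA against SH Sham, against 11.2% of all genes called. In EE + SNA against SH Sham 14 were higher and 1 lower, against 12.5% of all genes. In EE + SNA against EE Sham 9 were higher and 1 lower, against 4.83%. In the fit over both housings 18 were higher and 1 lower, against 22.4% of all genes. Csrnp1, a nuclear protein induced by AXIN, rose by 1.02 ± 0.08 on the log2 scale (SE), Klf6, a zinc finger factor, by 0.86 ± 0.06, and Jun, the partner of FOS proteins in AP-1, by 0.68 ± 0.04, while Amigo3, a membrane adhesion protein, fell by 0.70 ± 0.06. The summed level of the list was 939 to 1040 CPM in SH Sham, 1250 to 1280 CPM in SH SNA, 931 to 1020 CPM in EE Sham and 1210 to 1350 CPM in EE + SNA, so the axotomy samples did not overlap the sham samples. The median log2 fold change of the 38 for axotomy over both housings was 0.29, beside 0.08 for the 9 members and 0.00708 for all genes, and the difference between the lists was not tested. For enrichment over both surgeries and for the interaction, edgeR called 0 of 38 at adjusted P-value, against 0% of all genes in both. At an unadjusted P-value 5 were higher and 1 lower for enrichment, against 4.69% of all genes. For the interaction 2 were higher and 2 lower, against 2.61%.

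**Figure D5:**
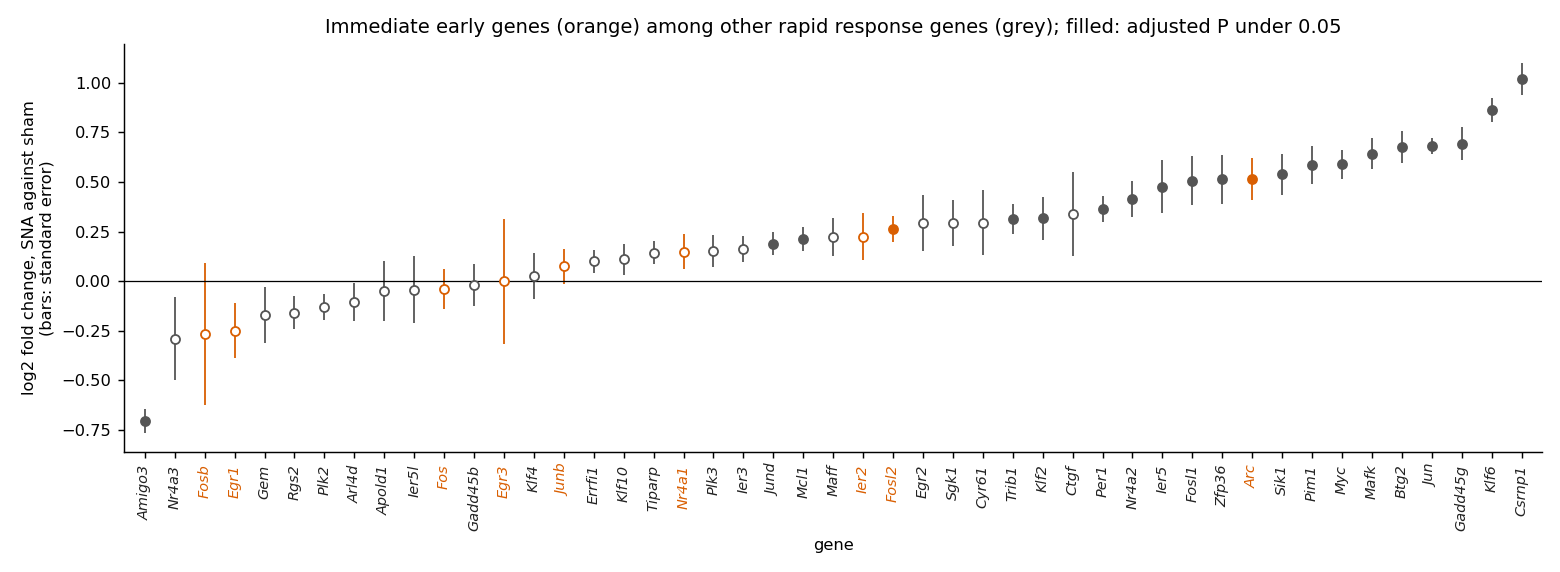
Log2 fold change of SNA against sham over both housings for the 9 immediate early genes tested (orange) and 38 other rapid response genes (grey), ordered from lowest to highest, where bars are ± 1 SE and filled points have an adjusted P-value under 0.05. Among the orange genes Fosl2 and Arc are filled, at 0.26 and 0.52, while Fos and Junb lie near 0 and Jun, Klf6 and Csrnp1 stand at the right.

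The partners and regulators of the members were described from lists of the same kind, in the fit for axotomy over both housings, where 22.4% of all genes tested were called at adjusted P-value. Of 10 AP-1 and EGR partners 4 were higher and 0 lower at adjusted P-value, with Atf3, a bZIP factor known for its induction in axotomised neurons, at a log2 fold change of 1.92 ± 0.08 (SE), Fosl1 at 0.51 ± 0.12 and Jund at 0.19 ± 0.06 beside Jun. The lists overlap, since Jun, Jund and Fosl1 are also among the other rapid response genes, and Atf3 and Jun among the genes of the axotomy response. The EGR corepressors Nab1 and Nab2 had 0.07 and -0.000425 and were not called. Of 22 kinases, cofactors and factors upstream of immediate early genes 5 were higher and 1 lower, a share near that background. Rps6ka1, the ERK-activated kinase RSK1, had 0.86 ± 0.10, Creb1 0.22 ± 0.06 and Mkl1, a cofactor of SRF, 0.40 ± 0.06, whereas Mef2c, a calcium-responsive factor, had -0.50 ± 0.08 and Srf itself, at 0.03 ± 0.07, was not called. Of 9 feedback inhibitors of ERK 1 was higher, the phosphatase Dusp1 at 0.56 ± 0.06, and 3 were lower, namely Spry4, Spred2 and Dusp5, at -0.54, -0.28 and -0.23.

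Of 10 slower activity-regulated genes 5 were higher and 2 lower at adjusted P-value in that fit. Pcsk1, a prohormone convertase, had 0.43 ± 0.05, the neurosecretory protein Vgf 0.52 ± 0.06 and the neurotrophin Bdnf 0.34 ± 0.05 (log2 fold change ± SE), and Crem and Inhba were also higher, at 0.64 and 1.18. Nrn1 and Cpeb3 were lower, at -0.38 and -0.45. For enrichment over both surgeries edgeR called 0 genes of any of these lists at adjusted P-value. At an unadjusted P-value 1 of 10 slower genes and 1 of 9 ERK inhibitors were higher, against 4.69% of all genes called.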

How the data were processed

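Per the labels and the study's methods, libraries were made with the TruSeq mRNA kit from column-purified RNA and sequenced as paired ends on an Illumina HiSeq. The authors aligned reads to mm10 with TopHat2 2.0.12 and Bowtie2 2.2.3 and deposited raw read counts per gene from HTSeq (0.6.0 in the submitters' processing notes), which were used as deposited. The 5 summary lines of HTSeq (reads on no feature, 46.7% to 47.6% of the total per sample, and the like) were left out of library sizes. The counts that the authors deposited are not normalised, and CPM and fold changes were computed here. The authors also deposited FPKM of the same samples, with the gene length they used not stated, and these were taken as deposited for levels between genes and for the limma alternatives.

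Genes were kept by filterByExpr with the 4 groups, and each pair of groups was tested on its 6 samples with edgeR 4.0.16 (TMM scaling, quasi-likelihood F test, two-sided), with Benjamini-Hochberg adjustment over all 16238 genes. The interaction and the additive effects were fitted on all 12 samples. A standard error is the log2 fold change divided by the square root of F. A gene was called either by its unadjusted P-value, the study's own rule, or by its adjusted P-value, each with a threshold of 0.05. P-values measure the spread between samples that are pools of 2 mice each. The scripts were tested on simulated counts with known changes. Correlations used log2 CPM with a prior count of 2 and exact permutations within groups.

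The members and gene lists were chosen with earlier results of these data known. All 10 members are described, other genes being named from the listed roles by size of change (log2 fold change, mean over 1 CPM) or as key members of a list chosen after their values were seen. Same-numbered samples deviated together only in EE Sham against SH Sham (r = 0.331, 0.137 and 0.111 for numbers 1 to 3, each over 0.1), and the labels do not say what a number stands for. Alternatives were the edgeR likelihood ratio test, DESeq2 1.42.0, library size alone, no filter, limma 3.58.1 on log2(FPKM + 1) and log2(FPKM + 0.1), the replicate number as a block, all 12 samples in one fit, and leaving out each sample. CPM over GENCODE M21 exon length was added after seeing the data.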

Additional observations from a re-analysis of the deposited data

How the results depend on the processing

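Of 9 log2 fold changes called at an unadjusted P-value, 126 of 141 recomputed values stayed called in the same direction, 15 kept the direction without the call and 0 reversed. Of 63 values not called, 902 of 1002 recomputed values stayed uncalled in the same direction, 46 reversed and 54 became called. Members called at adjusted P-value in SH SNA against SH Sham fell from 2 to 1 with DESeq2, log2(FPKM + 1), log2(FPKM + 0.1) or the replicate block, and ranged from 0 to 3 with a sample left out. At an unadjusted P-value the count was 2 instead of 1 in EE Sham against SH Sham with the likelihood ratio test, no filter, the replicate block or all 12 samples, 0 instead of 2 in EE + SNA against SH Sham with DESeq2, 2 instead of 1 in EE + SNA against EE Sham with no filter or the replicate block, 4 instead of 2 for axotomy over both housings with no filter, and 2 instead of 1 for enrichment over both surgeries with DESeq2, no filter or the replicate block. With a sample left out these counts ranged from 1 to 2, 0 to 5, 0 to 4, 2 to 4 and 1 to 2 in that order, from 0 to 3 for EE + SNA against SH SNA, and from 0 to 2 for the interaction (2 without SH SNA replicate 2, 1 without SH Sham replicate 2 or EE + SNA replicate 3). The cause was not tested. Smaller moves were from 2 to 3, at an unadjusted P-value in SH SNA against SH Sham (DESeq2, no filter, all 12 samples), in EE + SNA against SH Sham (no filter, all 12 samples) and for axotomy over both housings (replicate block), and at adjusted P-value in SH SNA against SH Sham and for axotomy over both housings (no filter). The replicate block moved no count beyond those named.

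Reversals fell on values near 0 or on few reads. In SH SNA against SH Sham, Junb was -0.0124 with library size alone, -0.00915 with no filter, -0.0064 with log2(FPKM + 1) and -0.00626 with log2(FPKM + 0.1), and Fosb was -0.00265 and -0.112 on those 2 FPKM scales. Fosb in EE + SNA against SH SNA was 0.0637 with log2(FPKM + 0.1), and Egr3 for axotomy over both housings was 0.00511 with DESeq2. With a sample left out, log2 fold changes in SH SNA against SH Sham ranged from -0.109 to 0.139 for Junb, -0.441 to 0.0197 for Egr3, -0.821 to 0.504 for Fosb, -0.0165 to 0.165 for Nr4a1 and -0.0619 to 0.222 for Ier2. In EE Sham against SH Sham they ranged from -0.0185 to 0.129 for Fosl2, -0.0897 to 0.15 for Junb and -0.192 to 0.0736 for Ier2. In EE + SNA they ranged against SH Sham from -0.105 to 0.0724 for Nr4a1, -0.0397 to 0.175 for Fos and -0.507 to 0.281 for Fosb, against SH SNA from -0.592 to 0.737 for Fosb and -0.0328 to 0.377 for Egr1, and against EE Sham from -0.0633 to 0.607 for Egr3. The interaction ranged from -1.07 to 0.259 for Fosb and -0.201 to 0.0969 for Arc, axotomy over both housings from -0.19 to 0.184 for Egr3 and -0.0973 to 0.0247 for Fos, and enrichment over both surgeries from -0.14 to 0.056 for Egr1.

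With 3 samples per group, exact permutation cannot give a P-value under 0.1 for a single gene, so calls rest on the spread shared across genes in the fit. All samples were taken at 24 h and none from unoperated mice, so the rise within the first hours that defines these genes lies outside the design.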
